A study of Mus musculus with 6 samples.

Results

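The cadherins are calcium-dependent adhesion proteins of the cell surface, and the protocadherins are their largest branch in the vertebrate nervous system. The genes described here are all those of the deposited mouse isoform table whose symbol is Cdh followed by a number or begins with Pcdh. They are 83 of the 17027 gene symbols listed, and they hold 168 of the 50829 isoforms. By class they comprise 13 classical cadherins, of which 2 are type I and 11 type II, and 2 other Cdh genes. The protocadherins comprise 57 clustered genes, with 14 in the alpha cluster, 21 in the beta cluster and 22 in the gamma cluster, and 11 non-clustered genes. Other members of the family are not analysed here.

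Classical cadherins bind the same or related cadherins on a neighbouring cell and are tied to actin through catenins. Clustered protocadherins are chosen in different combinations by single neurons, through separate promoters, and let the branches of a neuron recognise their own kind. In the mouse retina the gamma cluster is known for the survival of neurons and for the self-avoidance of starburst amacrine cells. Non-clustered protocadherins of the delta group act in axon growth and contact, in part by recruiting actin regulators of the WAVE complex.

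The study sequenced retinal ganglion cells (RGCs), the neurons that send the axons of the optic nerve, from wild-type mice of the strain C57/6NCrl. Mice were taken on day 18 of gestation (E18), on day 5 after birth (P5) or at 8 weeks (Adult), with 2 libraries at each age and 6 in all. Cells were panned on antibody to Thy1 after macrophages had been removed; the sample protocol adds amacrine cells to what was removed, and the series description does not. PolyA-selected RNA was read as pairs of 100 bases. No genotype or treatment differed between the ages. Values are FPKM, which divide an isoform's fragments by its length and the library's size, summed over the isoforms of a gene. Library depth is unknown because FPKM carry no counts.

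Marker lists of the retinal cell types set the Adult libraries apart. RGC markers summed to 4673 and 5295 FPKM in the E18 libraries, 5038 and 4622 in those of P5 and 563 and 378 in those of Adult. None of the 15 RGC markers listed was at 0 in any library, and 14 of 15 were lower in Adult than at P5. Amacrine markers summed to 283 and 246 FPKM in the E18 libraries, 223 and 265 in those of P5 and 1211 and 1534 in those of Adult. Müller glia markers summed to 229 and 195 FPKM in the E18 libraries, 172 and 186 in those of P5 and 1341 and 1608 in those of Adult. Of the markers tested, 9 of 9 for amacrine cells, 7 of 8 for Müller glia, 12 of 12 for rods, 7 of 8 for cones and 8 of 9 for bipolar cells were higher in Adult than at P5, with none of these at 0 in an Adult library. Over all genes tested, 26.2% were higher and 33.7% lower in Adult than at P5. Markers near 0 at the younger ages passed the filter of a mean of at least 1 FPKM only through their Adult libraries. For these markers filter and test are not independent. Rod markers separated the Adult libraries, with 5817 FPKM in replicate 1 and 714 FPKM in replicate 2, against 5.84 to 12.2 FPKM in the younger libraries. Cone markers summed to between 82.2 and 86.2 FPKM in Adult and between 1.41 and 6.17 FPKM earlier, and bipolar markers to 254 and 255 FPKM in the E18 libraries, 138 and 152 in those of P5 and 146 and 154 in those of Adult. Isl1 stands in both the RGC and the bipolar list, and was the 1 bipolar marker lower in Adult than at P5. Markers of progenitor and dividing cells summed to 118 FPKM in E18 replicate 1 and to between 8.46 and 33.7 FPKM in the other libraries. Every Adult comparison below moves with these lists; their part in the results was not tested, and in bulk libraries fewer cells of a type and less RNA per cell cannot be told apart. Of the endothelial markers 3 of 9 were listed, with sums of 34.4 and 40.0 FPKM in Adult and 4.28 to 11.4 FPKM earlier. Markers of pericytes, microglia and macrophages, pigment epithelium, astrocytes and horizontal cells each summed to at most 13 FPKM in any library, but rest on few genes, with 2 of 5, 1 of 7, 2 of 8, 3 of 5 and 2 of 5 markers listed, in that order.

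The make-up of the family changed with age. All 83 genes together had 715 and 749 FPKM in the E18 libraries, 879 and 859 in those of P5 and 659 and 783 in those of Adult. The alpha cluster and the type I cadherins were lowest in Adult, while the type II cadherins were lowest at E18. Of the 83 genes, 81 passed the filter of a mean of at least 1 FPKM over the 6 libraries and were tested with limma on log2(FPKM + 1). Calls are at a Benjamini-Hochberg adjusted p under 0.05 over all 14390 genes tested.

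**Figure D1:**
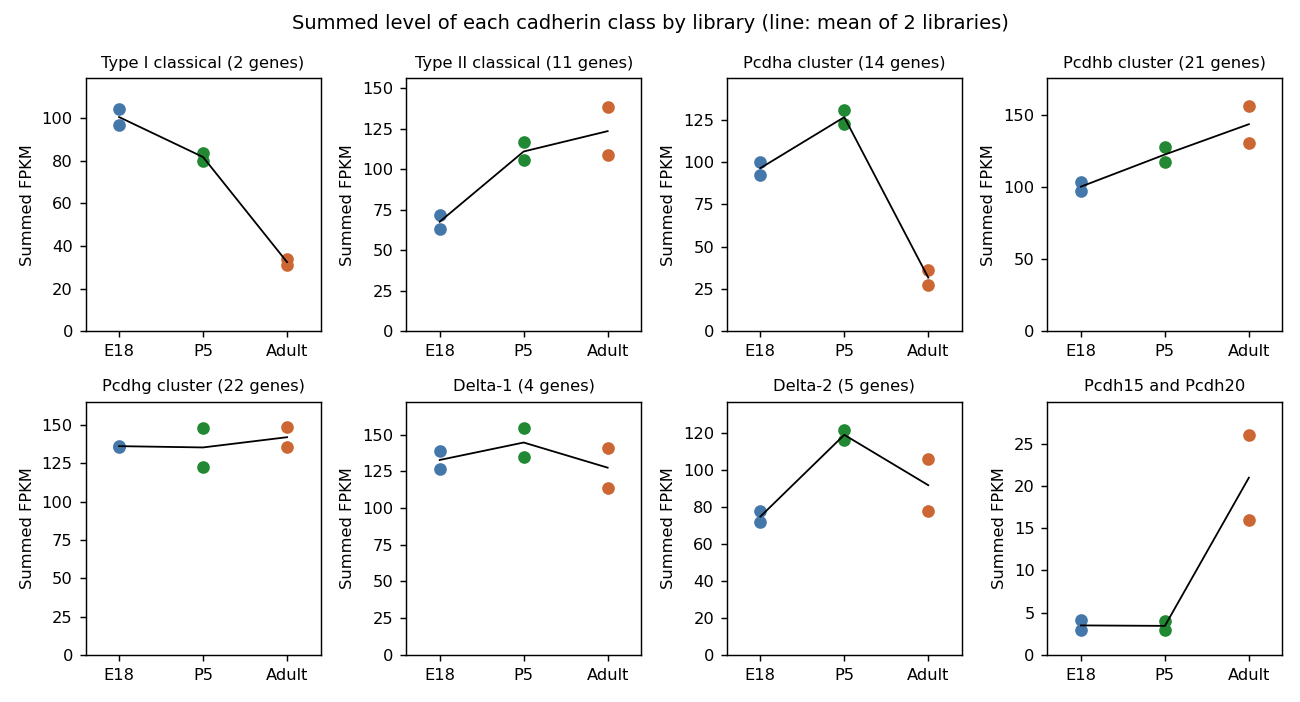
Summed FPKM of each class (y axis, from 0, a scale of its own in each panel) in the 2 libraries of each age (x axis), with a line through the means. Pcdha genes sat at 27.3 and 36.1 FPKM in Adult, below all younger libraries, and type II cadherins at 63.2 and 71.8 FPKM at E18, below all later ones.

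Between P5 and E18, 12 members were higher at P5, 1 was lower and 68 were not called, where 10.5% of all genes tested were called (5.52% higher and 4.95% lower). The members' median log2 change was 0.17, beside -0.03 for all genes. The 12 were Cdh6, Cdh7, Cdh8, Cdh18, Cdh20, Pcdh10, Pcdh11x, Pcdh18, Pcdhac2, Pcdhb9, Pcdhb12 and Pcdhgc4, and the lower gene was Cdh2. The calls depended on single libraries while the changes stayed of like size: leaving out library a of P5, replicate 1 of E18 or replicate 2 of E18, limma called 0 members, with 14 higher and 4 lower, 15 and 3, and 15 and 2 at an unadjusted p under 0.05. Calls over all genes also dropped, to 7 higher and 3 lower, 9 and 19, and 40 and 77. Without P5 library b 3 members were called, and 4 without Adult replicate 1 or without Adult replicate 2, all of them higher. The log2 change of Cdh8, as an example, was 1.05 to 1.26 without 1 library and 1.15 with all. Across the other scalings of the libraries 8 of the 13 calls were kept, and those of Cdh2, Cdh7, Cdh20, Pcdhb12 and Pcdhgc4 were not.

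Between Adult and P5, 19 members were higher in Adult, 28 were lower and 34 were not called, where 59.8% of all genes tested were called (26.2% higher and 33.7% lower). Their median log2 change was 0.03, beside -0.07 for all genes. Between Adult and E18, 26 were higher in Adult, 22 were lower and 33 were not called, where 59.7% of all genes were called (25.3% higher and 34.4% lower). The median was 0.27, beside -0.11. The family's share of calls was thus near that of all genes, and the classes within it differed in direction. The comparisons share libraries and are not independent of each other.

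Adult calls also move with how libraries are scaled. Rescaling each library to TPM (shares of the library's transcripts) moved the median log2 change of all genes to -0.76 in Adult against P5 and -0.68 in Adult against E18, and scaling to the protein-coding total moved both to 0.20. The split of members then was 6 higher and 51 lower with TPM and 32 higher and 22 lower with the protein-coding total in Adult against P5, and 11 and 36, and 39 and 17, in Adult against E18. Calls that were lost without 1 of the 6 libraries in Adult against P5 were those of Cdh18, Cdh20, Pcdh8, Pcdh10, Pcdh18, Pcdhb7, Pcdhb8, Pcdhb9, Pcdhb12, Pcdhga3, Pcdhga7, Pcdhgb6, Pcdhgb8 and Pcdhgc3, and 33 of 47 were kept throughout. In Adult against E18 28 of 48 were kept; those of Cdh7, Cdh10, Cdh11, Pcdh8, Pcdha1, Pcdha10, Pcdhac1, Pcdhga1, Pcdhga4, Pcdhgb2 and Pcdhgb6 and 9 beta genes were not. Class medians are therefore also given relative to the median of all genes. No scaling between libraries is stated in the sources used here.

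Among the 3 groups of the family, clustered protocadherins had 13 higher and 18 lower of 57 tested in Adult against P5, with a median of 0.03. Classical cadherins had 4 higher and 5 lower of 12, with a median of 0.05, and non-clustered protocadherins 2 higher and 4 lower of 11, with a median of 0.05. Over all genes, 26.2% were higher and 33.7% lower, and the counts of the clustered genes lie near these shares. Differences between these groups were not tested. Each group held classes that went opposite ways, and the classes are taken in turn below.

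The type I cadherins Cdh2 and Cdh4 were both lower in Adult than at either younger age. Cdh2, N-cadherin, which neural cells use to adhere and to extend axons along each other, had 73.0 and 76.5 FPKM in the E18 libraries, 52.0 and 54.2 in those of P5 and 20.2 and 21.7 in those of Adult. The ages did not overlap, and the order was E18, P5, Adult from high to low. Cdh2 fell by 0.49 on the log2 scale at P5 relative to E18 (adjusted p = 0.0335). Without 1 library the change was -0.45 to -0.52 and the call was lost each time, as it was with TPM and protein-coding scaling. In Adult it was 2.54-fold lower than at P5 (log2 change -1.30, 95% interval -1.54 to -1.07, adjusted p = 1.44e-04). Cdh4, the R-cadherin first described in the chick retina, had 23.9 and 27.7 FPKM in the E18 libraries, 31.7 and 25.7 in those of P5 and 10.7 and 12.3 in those of Adult. Its E18 and P5 libraries overlapped and both Adult libraries lay below them (log2 change -1.24, 95% interval -1.60 to -0.88, adjusted p = 7.76e-04, Adult against P5). The class summed to 96.9 and 104 FPKM in the E18 libraries, 83.7 and 79.9 in those of P5 and 30.9 and 34.0 in those of Adult.

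Type II cadherins moved in several directions. Their sum was 71.8 and 63.2 FPKM in the E18 libraries, 116 and 105 in those of P5 and 109 and 138 in those of Adult, so P5 and Adult overlapped and E18 lay below both. At P5, 5 of 10 tested were higher than at E18 and 0 lower, where 5.52% and 4.95% of all genes were. At an unadjusted p under 0.05 in limma the counts were 6 and 1. The median change of 0.68 stood 0.72 above that of all genes. In Adult, 4 were higher and 3 lower than at P5, and 6 higher and 2 lower than at E18, where 26.2% and 33.7%, and 25.3% and 34.4%, of all genes were. With TPM the split against P5 was 2 higher and 6 lower. Relative to all genes the class median stood 0.18 higher in Adult than at P5 and 1.28 higher than at E18, and both stayed positive in every scaling, although against P5 the median itself was 0.10 as deposited and -0.59 with TPM. Cdh9 was not tested, with 1.26 and 2.27 FPKM in Adult and 0.0785 to 0.354 FPKM in the younger libraries.

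Cdh6, Cdh7 and Cdh8 were higher at P5 than at E18. Cdh6 marks RGCs of non-image-forming visual circuits in the mouse and is known for matching their axons to targets. It had 5.26 and 3.74 FPKM in the E18 libraries, 12.8 and 11.1 in those of P5 and 4.04 and 5.11 in those of Adult. The P5 libraries lay above all others, and Cdh6 rose at P5 (log2 change 1.25, 95% interval 0.78 to 1.72, adjusted p = 0.0194) and was lower again in Adult relative to P5 (log2 change -1.22, 95% interval -1.69 to -0.75, adjusted p = 0.00228). Cdh8 had 4.84 and 4.05 FPKM in the E18 libraries, 11.5 and 10.7 in those of P5 and 11.9 and 11.9 in those of Adult. Cdh7 had 6.71 and 6.05 FPKM in the E18 libraries, 17.9 and 12.0 in those of P5 and 12.6 and 17.1 in those of Adult. For both, E18 lay below every later library. The rise at P5 relative to E18 was 1.15 for Cdh8 (adjusted p = 0.0102) and 1.09 for Cdh7 (adjusted p = 0.0347) on the log2 scale, and Adult was not called against P5.

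Cdh18, Cdh20, Cdh22 and Cdh24 were higher in Adult than at both younger ages. Cdh22 had 0.818 and 0.673 FPKM in the E18 libraries, 1.01 and 0.801 in those of P5 and 9.29 and 11 in those of Adult. It was near 1 FPKM in every younger library and rose 11.2-fold in Adult relative to P5 (log2 change 2.55, 95% interval 2.12 to 2.97, adjusted p = 1.14e-04). Cdh22 passed the filter of a mean of 1 FPKM only through its Adult libraries, so filter and test are not independent. Cdh24, which binds catenins as other type II cadherins do, had 6.13 and 7.90 FPKM in the E18 libraries, 3.33 and 4.20 in those of P5 and 19.2 and 26.9 in those of Adult. Adult lay above both younger ages (log2 change 2.32, 95% interval 1.81 to 2.83, adjusted p = 2.66e-04, against P5). Cdh20 had 1.19 and 0.270 FPKM in the E18 libraries, 4.71 and 2.87 in those of P5 and 7.65 and 11.8 in those of Adult. No 2 ages overlapped, and it rose at P5 relative to E18 (log2 change 1.5, 95% interval 0.66 to 2.33, adjusted p = 0.0455) and in Adult relative to P5 (log2 change 1.16, 95% interval 0.32 to 2.0, adjusted p = 0.027). Cdh18 had 7.76 and 7.52 FPKM in the E18 libraries, 15.6 and 12.6 in those of P5 and 18.9 and 21 in those of Adult. It was higher at P5 than at E18 (log2 change 0.80, 95% interval 0.46 to 1.14, adjusted p = 0.025) and in Adult than at P5 (log2 change 0.48, 95% interval 0.14 to 0.82, adjusted p = 0.0252), but the last change had the sign reversed with TPM, at -0.24.

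A promoter stretch of each of these 4 genes is shown because the genes moved the same way in Adult; it is the 250 bases before the gene's RefSeq start on GRCm38.p6, with capitals marking GGGCGG or its reverse CCGCCC, the GC box bound by Sp factors. The Cdh18 stretch lies at chr15:23036213-23036462 on the plus strand, that of Cdh20 at chr1:104768270-104768519 on the plus strand, that of Cdh22 at chr2:165234738-165234987 on the minus strand and that of Cdh24 at chr14:54641365-54641614 on the minus strand. The RefSeq start of Cdh18 lies 487 kb inside the gene's span in the GENCODE M21 annotation, which begins further upstream. Of the Cdh22 stretch, 116 bases lie inside that gene's GENCODE span.
Cdh18: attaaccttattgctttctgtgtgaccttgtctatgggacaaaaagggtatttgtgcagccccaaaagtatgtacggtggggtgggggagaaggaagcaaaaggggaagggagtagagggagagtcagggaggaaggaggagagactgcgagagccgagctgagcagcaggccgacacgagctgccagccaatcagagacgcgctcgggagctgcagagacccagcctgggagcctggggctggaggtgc
Cdh20: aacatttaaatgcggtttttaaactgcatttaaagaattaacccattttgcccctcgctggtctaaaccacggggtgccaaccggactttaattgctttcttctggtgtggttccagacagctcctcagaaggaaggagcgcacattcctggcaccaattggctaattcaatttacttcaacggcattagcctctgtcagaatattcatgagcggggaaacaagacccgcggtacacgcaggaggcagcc
Cdh22: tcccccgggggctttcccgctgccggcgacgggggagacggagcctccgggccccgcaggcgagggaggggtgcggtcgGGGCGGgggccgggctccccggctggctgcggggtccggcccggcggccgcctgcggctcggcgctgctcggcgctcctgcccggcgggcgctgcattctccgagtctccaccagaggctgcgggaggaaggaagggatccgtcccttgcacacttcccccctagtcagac
Cdh24: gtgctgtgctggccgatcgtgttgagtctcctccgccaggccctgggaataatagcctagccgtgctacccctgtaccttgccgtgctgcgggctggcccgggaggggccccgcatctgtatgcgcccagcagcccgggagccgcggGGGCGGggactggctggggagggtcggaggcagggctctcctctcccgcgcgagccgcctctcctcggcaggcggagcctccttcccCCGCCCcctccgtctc
The motif, searched on both strands, was found 1 time in the Cdh22 stretch and 2 times in that of Cdh24, and its letters are not in the other windows. It occurs in 32.7% of 32851 RefSeq promoter windows of the same length. The dinucleotide CG occurs 30 times in the stretch of Cdh22 and 22 times in that of Cdh24, against 10 for Cdh20 and 8 for Cdh18, with a median of 6 and quartiles of 2 and 16 over all windows.

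Cdh10 and Cdh11 were lower in Adult. Cdh11, also known as OB-cadherin, had 24.9 and 21.4 FPKM in the E18 libraries, 29.5 and 33.2 in those of P5 and 13.1 and 18.7 in those of Adult. Both Adult libraries lay below all younger ones (log2 change -0.95, 95% interval -1.39 to -0.51, adjusted p = 0.00501, against P5). Cdh10 had 8.94 and 7.26 FPKM in the E18 libraries, 12.8 and 12.2 in those of P5 and 4.77 and 4.87 in those of Adult. It fell in Adult relative to P5 (log2 change -1.21, 95% interval -1.55 to -0.87, adjusted p = 6.47e-04) and relative to E18 (log2 change -0.64, 95% interval -0.98 to -0.30, adjusted p = 0.00823). Cdh12 had 5.19 and 4.26 FPKM in the E18 libraries, 6.93 and 5.37 in those of P5 and 6.10 and 7.31 in those of Adult and was not called in any comparison, but its listed isoforms went opposite ways. In Adult relative to P5 the isoform equal to an annotated transcript fell by 1.68 on the log2 scale, and an unannotated splice form rose by 1.04.

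Cdh13 and Cdh16 stand outside the classical classes. Cdh13, T-cadherin, is held by a lipid anchor and has no cytoplasmic domain. It had 18.6 and 21.3 FPKM in the E18 libraries, 25.4 and 23.8 in those of P5 and 5.43 and 6.36 in those of Adult. Both Adult libraries lay below all others, and it was 4.17-fold lower in Adult than at P5 (log2 change -1.89, 95% interval -2.21 to -1.58, adjusted p = 1.16e-04). Cdh16, known from kidney, had 2.26 and 0.391 FPKM in Adult and was listed at 0 in all younger libraries, which left it untested.

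**Figure D2:**
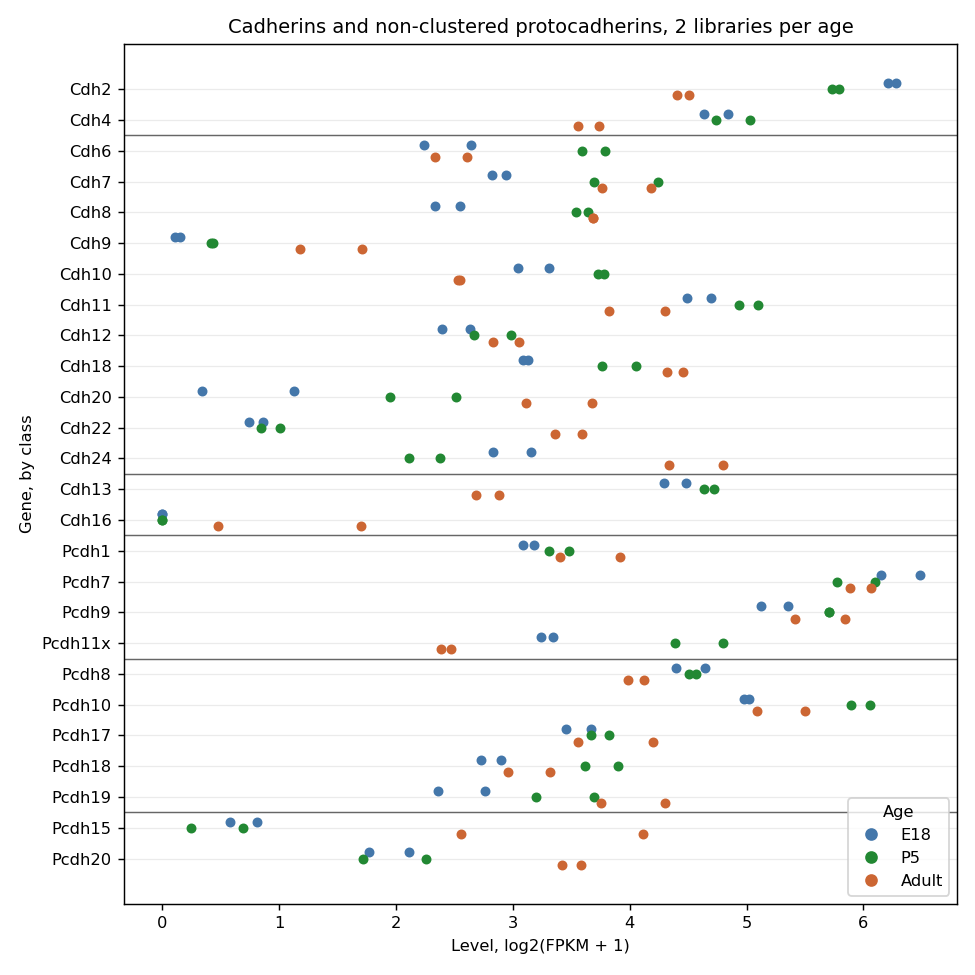
Level of each cadherin and non-clustered protocadherin as log2(FPKM + 1) (x axis) in the 2 libraries of each age, with genes grouped by class (y axis, lines between classes). Cdh22, Cdh24, Pcdh15 and Pcdh20 had both Adult points to the right of the younger ones, and Cdh2, Cdh4, Cdh13 and Pcdh11x to the left.

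All 57 clustered protocadherins carry 1 listed locus, chr18:36930183-37841873 on mm10, which spans 912 kb, and all lie on the plus strand. Each variable exon of the alpha and gamma clusters has its own promoter and is spliced to constant exons shared by its cluster, while beta genes have a single coding exon. Cufflinks had to divide the reads of shared constant exons and of near-identical paralogs among genes, so the split between neighbouring genes of a cluster is uncertain, and the labels do not say whether strand was used. Alpha genes took 28.4% and 29.5% of clustered FPKM in the E18 libraries, 32.8% and 33.0% in those of P5 and 9.30% and 10.6% in those of Adult. Beta genes took 29.8% and 30.5% in the E18 libraries, 34.3% and 29.6% in those of P5 and 44.6% and 45.9% in those of Adult. Gamma genes took 41.8% and 40.0% in the E18 libraries, 32.9% and 37.3% in those of P5 and 46.1% and 43.5% in those of Adult. The alpha share in both Adult libraries was thus under that of every younger library, and the beta share above.

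The alpha cluster was lower in Adult in nearly all its genes. Its sum was 92.6 and 100.2 FPKM in the E18 libraries, 122 and 131 in those of P5 and 27.3 and 36.1 in those of Adult, so that Adult, at 31.7 ± 6.20, was 3.99-fold lower than P5, at 127 ± 5.83 (mean ± SD, n = 2 each). Of 14 genes tested, 13 were lower in Adult than at P5 and 13 than at E18, where 33.7% and 34.4% of all genes were. Of the 14, 0 were higher at adjusted or unadjusted p in limma. The median log2 change was -1.49 against P5 and -1.28 against E18, beside -0.07 and -0.11 for all genes. The 13 calls against P5 held in each scaling and without each library in turn; against E18 they ranged from 10 to 13 without 1 library and from 11 to 14 between scalings. The RGC marker list moved the same way, with 14 of 15 lower and a median log2 change of -3.68.

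The exception was Pcdha8, which had 1.45 and 1.39 FPKM in the E18 libraries, 1.13 and 1.16 in those of P5 and 0.937 and 1.22 in those of Adult and was not called in any comparison. Pcdhac2, a C-type alpha gene known for the spacing of serotonergic axons, was the most abundant of the cluster. It had 17.9 and 18.8 FPKM in the E18 libraries, 29.1 and 37.0 in those of P5 and 6.36 and 7.67 in those of Adult. The ages did not overlap: P5 was highest and Adult lowest, with a rise at P5 relative to E18 (log2 change 0.81, 95% interval 0.43 to 1.19, adjusted p = 0.031) and a fall in Adult relative to P5 (log2 change -2.08, 95% interval -2.46 to -1.70, adjusted p = 1.46e-04). Pcdha2 had 7.27 and 8.6 FPKM in the E18 libraries, 10.8 and 10.6 in those of P5 and 1.47 and 2.10 in those of Adult, with a change in Adult relative to P5 of the same size (log2 change -2.08, 95% interval -2.48 to -1.67, adjusted p = 1.80e-04). Pcdha7 had 10.5 and 11.7 FPKM in the E18 libraries, 13 and 12.2 in those of P5 and 2.4 and 3.05 in those of Adult. Pcdha4 had 9.29 and 10.2 FPKM in the E18 libraries, 11.6 and 12.8 in those of P5 and 3.72 and 4.74 in those of Adult. In both, each Adult library lay below all younger ones. In the other called alpha genes too both Adult libraries lay below all younger ones. Pcdha3 had 7.42 and 8.08 FPKM in the E18 libraries, 10.2 and 10.3 in those of P5 and 1.65 and 2.07 in those of Adult. Pcdha5 had 6.10 and 6.81 FPKM in the E18 libraries, 8.02 and 7.59 in those of P5 and 1.43 and 2.32 in those of Adult. Pcdha6 had 7.56 and 8.36 FPKM in the E18 libraries, 8.30 and 8.88 in those of P5 and 1.55 and 2.10 in those of Adult. Of these, Pcdha6 had E18 and P5 libraries that overlapped. Pcdha9 had 7.45 and 7.81 FPKM in the E18 libraries, 8.78 and 8.61 in those of P5 and 2.10 and 2.30 in those of Adult. Pcdha12 had 4.85 and 5.24 FPKM in the E18 libraries, 6.20 and 6.13 in those of P5 and 1.22 and 2.37 in those of Adult. Pcdha11 had 3.71 and 4.5 FPKM in the E18 libraries, 4.03 and 3.8 in those of P5 and 0.832 and 1.35 in those of Adult. Pcdha11 had the same overlap of E18 and P5. Pcdhac1 had 4.14 and 3.62 FPKM in the E18 libraries, 4.31 and 5.30 in those of P5 and 1.44 and 2.0 in those of Adult. Pcdha1 had 1.88 and 1.92 FPKM in the E18 libraries, 2.69 and 2.98 in those of P5 and 0.951 and 0.973 in those of Adult. Pcdha10 had 3.14 and 3.23 FPKM in the E18 libraries, 4.37 and 3.38 in those of P5 and 1.24 and 1.82 in those of Adult. Over these 9 genes the log2 change in Adult relative to P5 ran from -1.98 in Pcdha3 to -0.95 in Pcdha10. Within the cluster, Pcdhac2 took 19.3% and 18.7% of the FPKM in the E18 libraries, 23.7% and 28.3% in those of P5 and 23.3% and 21.3% in those of Adult, and it led the cluster at each age.

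The beta cluster was higher in Adult than at E18 as deposited. Its sum was 97.1 and 104 FPKM in the E18 libraries, 128 and 117 in those of P5 and 131 and 157 in those of Adult. Of 21 genes, 12 were higher in Adult than at E18 and 0 lower (13 and 0 at an unadjusted p under 0.05), where 25.3% and 34.4% of all genes were, with a median of 0.51; with TPM the sign turned for Pcdhb9 (-0.15) and Pcdhb11 (-0.026). Against P5 the median was 0.25. There 3 were higher (Pcdhb8, Pcdhb12 and Pcdhb16), 2 lower (Pcdhb7 and Pcdhb9) and 16 not called, beside 26.2% higher and 33.7% lower over all genes. These counts moved with the scaling: against P5 they were 0 higher and 12 lower with TPM and 13 and 0 with the protein-coding total, and against E18 2 and 5, and 16 and 0. Relative to all genes the medians were 0.62 and 0.32 and stayed positive in every scaling, but with TPM the deposited signs turned, to -0.026 against E18 and -0.43 against P5. The 12 calls against E18 dropped to 4 without E18 replicate 1, to 4 without E18 replicate 2 and to 6 without Adult replicate 2.

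Single beta genes differed in their course. Pcdhb12 had 2.04 and 2.19 FPKM in the E18 libraries, 4.74 and 4.13 in those of P5 and 6.38 and 8.41 in those of Adult. The ages did not overlap, and it rose at P5 relative to E18 (log2 change 0.80, 95% interval 0.38 to 1.22, adjusted p = 0.0391) and in Adult relative to P5 (log2 change 0.62, 95% interval 0.20 to 1.04, adjusted p = 0.0219), the last at -0.024 with TPM. Pcdhb9 had 7.68 and 8.08 FPKM in the E18 libraries, 14.1 and 14 in those of P5 and 10.6 and 11.1 in those of Adult. It was highest at P5, with a rise relative to E18 (log2 change 0.76, 95% interval 0.49 to 1.03, adjusted p = 0.0182) and a fall in Adult relative to P5 (log2 change -0.34, 95% interval -0.61 to -0.07, adjusted p = 0.0386). Pcdhb16 had 8.03 and 7.01 FPKM in the E18 libraries, 7.40 and 6.87 in those of P5 and 12.4 and 14.4 in those of Adult, Adult lying above both younger ages (log2 change 0.82, 95% interval 0.48 to 1.16, adjusted p = 0.00305, against P5). Pcdhb8 had 2.62 and 3.28 FPKM in the E18 libraries, 4.19 and 2.84 in those of P5 and 6.98 and 8.43 in those of Adult, with the same order (log2 change 0.96, 95% interval 0.46 to 1.46, adjusted p = 0.00784). Pcdhb17 had 12.6 and 13.7 FPKM in the E18 libraries, 13.7 and 12.8 in those of P5 and 10.8 and 14.7 in those of Adult, and its ages overlapped. Pcdhb7 had 5.58 and 5.95 FPKM in the E18 libraries, 8.6 and 7.64 in those of P5 and 4.38 and 5.94 in those of Adult, with P5 above the other ages and a fall in Adult relative to P5 (log2 change -0.58, 95% interval -0.98 to -0.17, adjusted p = 0.0251). The other 8 beta genes that were higher in Adult than at E18 were not called against P5. Pcdhb2 had 1.62 and 1.81 FPKM in the E18 libraries, 2.67 and 2.22 in those of P5 and 3.10 and 4.43 in those of Adult. Pcdhb3 had 2.13 and 1.87 FPKM in the E18 libraries, 3.33 and 2.62 in those of P5 and 3.67 and 4.97 in those of Adult. Pcdhb6 had 2.09 and 2.84 FPKM in the E18 libraries, 4.0 and 3.31 in those of P5 and 5.18 and 4.96 in those of Adult. In these 3 the order of ages was E18, P5, Adult from low to high, with no overlap. Pcdhb10 had 4.21 and 4.18 FPKM in the E18 libraries, 6.46 and 5.54 in those of P5 and 6.65 and 8.02 in those of Adult. Pcdhb11 had 4.76 and 5.16 FPKM in the E18 libraries, 6.48 and 5.4 in those of P5 and 7.02 and 7.95 in those of Adult. Pcdhb15 had 3.27 and 3.07 FPKM in the E18 libraries, 3.89 and 4.24 in those of P5 and 4.89 and 6.98 in those of Adult. These 3 had the same order. Pcdhb13 had 1.54 and 1.97 FPKM in the E18 libraries, 3.28 and 3.19 in those of P5 and 2.69 and 3.92 in those of Adult. Pcdhb14 had 2.52 and 2.81 FPKM in the E18 libraries, 4.71 and 4.11 in those of P5 and 4.04 and 4.97 in those of Adult. In Pcdhb13 and Pcdhb14 P5 and Adult overlapped and both lay above E18. Over these 8 genes the log2 change in Adult relative to E18 ran from 0.51 in Pcdhb11, which is -0.026 with TPM, to 0.82 in Pcdhb3 and Pcdhb6. The 8 beta genes not called in any comparison were Pcdhb4, Pcdhb5 and Pcdhb17 to Pcdhb22. Along the cluster, Spearman's rho between position and log2 change at P5 relative to E18 was -0.56 over the 21 beta genes, which share libraries and a locus, and between -0.32 and -0.01 in the other comparisons.

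The gamma cluster had sums that overlapped between all ages, with 136 and 136 FPKM in the E18 libraries, 123 and 148 in those of P5 and 135 and 149 in those of Adult. Within it, 10 of 22 genes were higher and 3 lower in Adult than at P5, and 5 higher and 2 lower than at E18, where 26.2% and 33.7%, and 25.3% and 34.4%, of all genes were. With TPM the split turned, to 2 higher and 10 lower against P5 and 1 and 9 against E18. The medians were 0.29 and 0.20, or 0.37 and 0.32 relative to all genes; with TPM they were -0.31 and -0.33, yet stayed positive relative to all genes. At P5 relative to E18 only Pcdhgc4 was called, where 10.5% of all genes were, while 18 of 22 changes were negative and 4 genes were lower at an unadjusted p under 0.05.

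The C-type gamma genes, which each neuron can express with less choice than the others, differed from each other. Pcdhgc4, known for its need in neuron survival, had 18.7 and 22.6 FPKM in the E18 libraries, 33.5 and 40.2 in those of P5 and 22.5 and 30.2 in those of Adult. P5 lay above both other ages, with a rise relative to E18 (log2 change 0.81, 95% interval 0.37 to 1.24, adjusted p = 0.042), and the Adult difference from P5 was not called (log2 change -0.48, 95% interval -0.92 to -0.04, adjusted p = 0.0595). Pcdhgc5 had 1.27 and 1.29 FPKM in the E18 libraries, 0.979 and 1.31 in those of P5 and 3.36 and 4.69 in those of Adult, with Adult above all younger libraries (log2 change 1.22, 95% interval 0.73 to 1.71, adjusted p = 0.00279, against P5). Pcdhgc3, which acts on dendrite branching through Axin1, had 13.9 and 11.3 FPKM in the E18 libraries, 6.21 and 12.3 in those of P5 and 15.2 and 17.7 in those of Adult, and its P5 libraries lay far apart with Adult above both (log2 change 0.83, 95% interval 0.13 to 1.53, adjusted p = 0.0456, Adult against P5). Of the others, Pcdhga11 had 12.9 and 13.2 FPKM in the E18 libraries, 10.2 and 11.1 in those of P5 and 5.28 and 5.73 in those of Adult. It was lower in Adult than at either younger age (log2 change -0.84, 95% interval -1.13 to -0.54, adjusted p = 0.0016, against P5). Pcdhgb6 had 12.0 and 13 FPKM in the E18 libraries, 9.80 and 13.6 in those of P5 and 6.85 and 5.44 in those of Adult, also lowest in Adult (log2 change -0.82, 95% interval -1.27 to -0.37, adjusted p = 0.0099). Pcdhga5 had 2.84 and 2.36 FPKM in the E18 libraries, 2.0 and 1.90 in those of P5 and 5.43 and 5.80 in those of Adult, and Adult lay above the younger ages (log2 change 1.16, 95% interval 0.79 to 1.54, adjusted p = 0.00116). Pcdhga3 had 9.66 and 9.01 FPKM in the E18 libraries, 9.27 and 10.8 in those of P5 and 7.37 and 7.34 in those of Adult and was also lower in Adult than at P5 (log2 change -0.40, 95% interval -0.71 to -0.08, adjusted p = 0.0372). The remaining 7 genes that were higher in Adult than at P5 had log2 changes of 0.62 in Pcdhga7 to 0.94 in Pcdhga4. These are sums over a gene's isoforms. In Pcdhga1 and Pcdhga7 the isoform that carries the constant exons was lower in Adult than at P5, as given below. Pcdhga1 had 3.86 and 3.92 FPKM in the E18 libraries, 3.79 and 3.66 in those of P5 and 6.81 and 6.27 in those of Adult. Pcdhga4 had 4.28 and 4.21 FPKM in the E18 libraries, 2.73 and 3.17 in those of P5 and 7.5 and 5.75 in those of Adult. Pcdhga7 had 4.59 and 3.95 FPKM in the E18 libraries, 3.45 and 3.50 in those of P5 and 5.52 and 6.24 in those of Adult. In these 3 the Adult libraries lay above all others and P5 below E18. Pcdhgb2 had 2.76 and 2.65 FPKM in the E18 libraries, 1.98 and 2.14 in those of P5 and 4.23 and 4.84 in those of Adult. Pcdhgb4 had 3.92 and 3.64 FPKM in the E18 libraries, 2.47 and 2.80 in those of P5 and 4.48 and 5.23 in those of Adult. Adult was again above P5 in each. Pcdhgb5 had 3.33 and 2.98 FPKM in the E18 libraries, 1.82 and 1.91 in those of P5 and 3.23 and 3.79 in those of Adult. Pcdhgb8 had 0.992 and 1.18 FPKM in the E18 libraries, 0.874 and 0.320 in those of P5 and 1.80 and 1.38 in those of Adult. These 4 were also lower at P5 than at E18 without overlap, but uncalled. Pcdhgb8 passed the filter only through its Adult libraries.

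**Figure D3:**
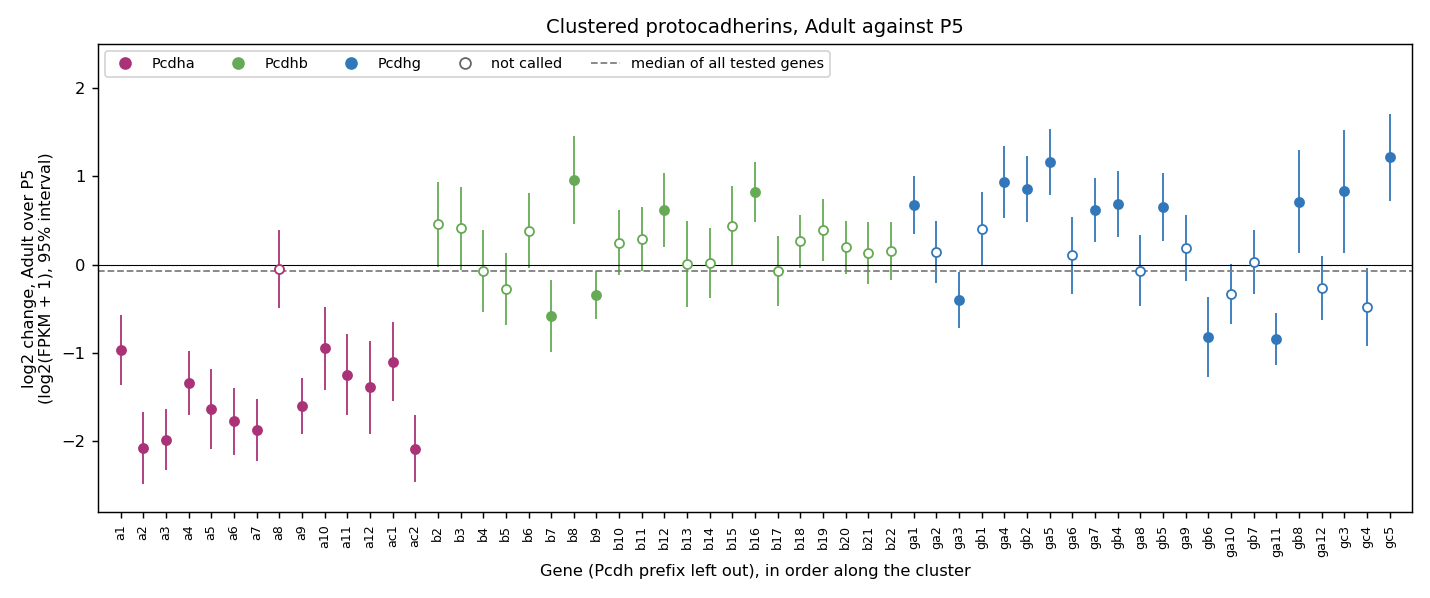
Log2 change of each clustered protocadherin in Adult over P5 on log2(FPKM + 1) (y axis) with 95% intervals from limma, in order along the cluster (x axis); open points were not called and the dashed line is the median of all genes tested (-0.07). All but Pcdha8 of the alpha genes lie below -0.9, while beta and gamma genes scatter around a median of 0.25 and 0.29, which turn to -0.43 and -0.31 with TPM.

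By annotated structure, alpha isoforms of 4 or 5 exons fell in Adult and gamma isoforms of 1 exon rose. Isoforms of 4 or 5 exons join a variable exon to the constant exons, while 1-exon forms end without them. Alpha forms of 4 or 5 exons, 18 isoforms of 14 genes, summed to 89.0 and 96.8 FPKM in the E18 libraries, 120.4 and 128 in those of P5 and 23.2 and 30.3 in those of Adult. They were 4.64-fold lower in Adult than at P5, and 15 of 17 tested were called lower, where 24.1% of all isoforms were called lower and 19.2% higher. The 2 alpha forms of 1 exon summed to 3.57 and 3.36 FPKM in the E18 libraries, 2.08 and 2.69 in those of P5 and 4.10 and 5.75 in those of Adult, and 1 was called higher in Adult than at P5.

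In the gamma cluster the 21 forms of 4 or 5 exons summed to 121 and 122 FPKM in the E18 libraries, 112 and 137 in those of P5 and 96.0 and 114 in those of Adult. Of 20 tested, 3 were higher and 5 lower in Adult than at P5, where 19.2% and 24.1% of all isoforms were. These counts lie near those shares, and the P5 and Adult sums overlapped. The 8 forms of 1 exon summed to 12.1 and 10.7 FPKM in the E18 libraries, 7.83 and 8.97 in those of P5 and 28.7 and 26.1 in those of Adult, so both Adult libraries lay above all younger ones. Of 7 tested, 6 were higher in Adult than at P5 and 0 lower, in limma, beside the same shares of all isoforms.

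**Figure D4:**
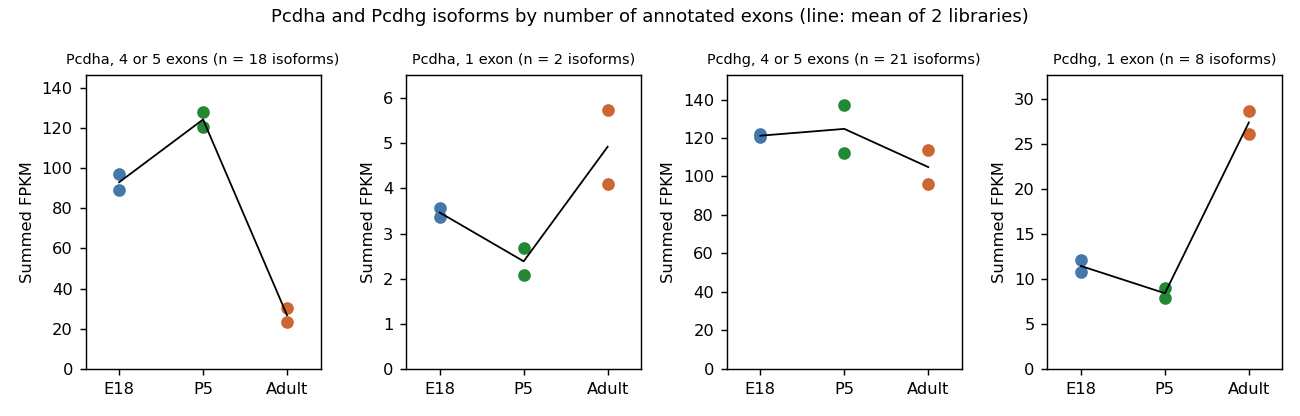
Summed isoform FPKM (y axis, from 0, a scale of its own in each panel) of Pcdha and Pcdhg isoforms by number of annotated exons, in the 2 libraries of each age (x axis), with a line through the means. Alpha forms of 4 or 5 exons had 23.2 and 30.3 FPKM in Adult, below all younger libraries, and gamma forms of 1 exon had 28.7 and 26.1 FPKM, above all younger libraries.

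In 10 genes both structures were listed. The share of the 1-exon form among the FPKM of both had a median over these genes of 24.4% and 21.5% in the E18 libraries, 12.5% and 16.8% in those of P5 and 78.6% and 56.6% in those of Adult. In 9 of the 10 genes both Adult libraries had a higher share than every younger library. The same count over all other genes with both structures was not made, so it does not set these genes apart. Pcdhga1 had 19.7% and 13.1% in the E18 libraries, 3.50% and 9.39% in those of P5 and 72.4% and 52.6% in those of Adult. Pcdhgc4 was the exception, with 20.3% and 20.8% in the E18 libraries, 10.1% and 9.87% in those of P5 and 26.9% and 19.9% in those of Adult. Over all tested isoforms annotated as retained introns with 1 exon, 24.8% of 705 were higher and 4.40% lower in Adult than at P5, with a median log2 change of 0.35, and over protein-coding isoforms with 1 exon 28.1% of 434 were higher and 25.1% lower. The shares rest on how reads of the variable exon were divided between forms that both contain it, and other scalings were not run on single isoforms.

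Of the 4 delta-1 protocadherins only Pcdh11x was called in any comparison. Their sum was 127 and 139 FPKM in the E18 libraries, 154 and 135 in those of P5 and 114 and 141 in those of Adult, with the ages overlapping. Pcdh7, whose counterpart in Xenopus acts in the start of RGC axons, had 70.0 and 88.2 FPKM in the E18 libraries, 67.4 and 53.6 in those of P5 and 58.3 and 66.1 in those of Adult. By mean level per length it was first of the family at E18 and in Adult and second to Pcdh10 at P5, with 79.1, 60.5 and 62.2 FPKM, and was not called in any comparison. Pcdh9 had 40.0 and 33.9 FPKM in the E18 libraries, 51.3 and 51.0 in those of P5 and 41.7 and 56.4 in those of Adult and Pcdh1 had 7.52 and 8.09 FPKM in the E18 libraries, 8.92 and 10.2 in those of P5 and 9.59 and 14.1 in those of Adult, and neither was called. Pcdh11x had 9.17 and 8.48 FPKM in the E18 libraries, 26.8 and 20.0 in those of P5 and 4.22 and 4.55 in those of Adult. No 2 ages overlapped: it rose at P5 relative to E18 (log2 change 1.30, 95% interval 0.90 to 1.70, adjusted p = 0.0129) and in Adult was 5.34-fold lower than at P5 (log2 change -2.17, 95% interval -2.57 to -1.77, adjusted p = 1.52e-04).

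Delta-2 protocadherins summed to 72.0 and 77.8 FPKM in the E18 libraries, 122 and 116 in those of P5 and 77.9 and 106 in those of Adult, so P5 lay above both other ages. Pcdh10, which brings the WAVE complex to sites of contact in growing axons, had 30.5 and 31.4 FPKM in the E18 libraries, 65.5 and 58.3 in those of P5 and 33.0 and 44.3 in those of Adult. It rose at P5 relative to E18 (log2 change 0.97, 95% interval 0.60 to 1.35, adjusted p = 0.0208) and was lower in Adult relative to P5 (log2 change -0.68, 95% interval -1.05 to -0.30, adjusted p = 0.0102). Pcdh18, which binds the adaptor Dab1, had 5.64 and 6.46 FPKM in the E18 libraries, 14 and 11.3 in those of P5 and 6.78 and 8.99 in those of Adult, with the same order of ages (log2 change 0.94, 95% interval 0.51 to 1.38, adjusted p = 0.0305, P5 against E18, and log2 change -0.62, 95% interval -1.06 to -0.18, adjusted p = 0.0252, Adult against P5). Pcdh19, a gene of inherited epilepsy in humans, had 5.78 and 4.14 FPKM in the E18 libraries, 8.17 and 12.0 in those of P5 and 12.5 and 18.7 in those of Adult. It was higher in Adult than at E18 (log2 change 1.47, 95% interval 0.83 to 2.11, adjusted p = 0.00359), with P5 between. Pcdh17 had 9.96 and 11.7 FPKM in the E18 libraries, 11.7 and 13.2 in those of P5 and 10.7 and 17.4 in those of Adult and was not called. Pcdh8, an activity-regulated protocadherin that draws N-cadherin from the surface of hippocampal neurons, had 20.1 and 24.1 FPKM in the E18 libraries, 22.7 and 21.7 in those of P5 and 14.9 and 16.5 in those of Adult. It was lower in Adult than at P5 (log2 change -0.48, 95% interval -0.79 to -0.17, adjusted p = 0.0186) and at E18 (log2 change -0.47, 95% interval -0.78 to -0.16, adjusted p = 0.0199). In Adult against P5 the class had 0 higher and 3 lower in limma, which counts 0 higher also in TPM and quantile scaling, and 1 higher and 0 lower with the protein-coding total. As deposited, 26.2% of all genes were higher and 33.7% lower.

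Within Pcdh8, 2 of its 5 listed isoforms, which differ by a stretch of coding sequence, changed in opposite directions. The change of the gene also includes its other isoforms. The first exon of the 4000-base isoform, ENSMUST00000039568, runs 291 bases further than that of the 3704-base isoform, ENSMUST00000195355. The stretch lies in coding sequence at chr14:79768497-79768787 on the minus strand of GRCm38, and its length is a multiple of 3. It is shown because its presence tells the isoforms apart; the capitals mark the GT at which the shorter form leaves the exon.
Pcdh8: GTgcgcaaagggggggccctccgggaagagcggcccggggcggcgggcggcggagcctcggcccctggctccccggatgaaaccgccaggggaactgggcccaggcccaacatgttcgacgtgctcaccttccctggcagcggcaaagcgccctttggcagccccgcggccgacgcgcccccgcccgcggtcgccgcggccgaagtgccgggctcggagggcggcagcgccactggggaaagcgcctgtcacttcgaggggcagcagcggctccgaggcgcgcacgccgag
The isoform with the stretch had 4.96 and 8.25 FPKM in the E18 libraries, 1.64 and 3.89 in those of P5 and 9.999 and 10.6 in those of Adult. It rose in Adult relative to P5 (log2 change 1.65, 95% interval 0.79 to 2.51, adjusted p = 0.0128). The isoform without it had 13.8 and 13.8 FPKM in the E18 libraries, 17.0 and 15.2 in those of P5 and 4.41 and 4.51 in those of Adult. It fell in Adult relative to P5 (log2 change -1.64, 95% interval -1.97 to -1.32, adjusted p = 5.91e-04). The form with the stretch made up 24.7% and 34.3% of Pcdh8 FPKM in the E18 libraries, 7.23% and 17.9% in those of P5 and 67.3% and 64.4% in those of Adult, which lay above all others.

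Pcdh10 changed its isoforms too. Its forms share most coding sequence and end in different last coding bases, so the protein's tail differs. The ends are shown with the stop codon in capitals. For the forms of several exons the end is what lies beyond the coding part that these forms share. For the 4638-base form it is what follows the shared part of its single exon. That form thus also lacks coding bases that the others share, which are not shown. On the plus strand of GRCm38 they lie at chr3:45381884-45381943 for the 4638-base form of 1 exon (ENSMUST00000193252), chr3:45419407-45419426 for the 8234-base form (ENSMUST00000170695), chr3:45399323-45399363 for the 7273-base form (ENSMUST00000171554) and chr3:45432474-45432544 for the 7081-base form (ENSMUST00000166126).
4638-base form: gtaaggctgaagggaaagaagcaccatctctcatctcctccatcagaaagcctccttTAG
8234-base form: cgcggaaaaggatatgcTAG
7273-base form: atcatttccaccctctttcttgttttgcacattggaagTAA
7081-base form: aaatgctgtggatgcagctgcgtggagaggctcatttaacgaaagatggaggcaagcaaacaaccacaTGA
The 4638-base form had 12.7 and 13.3 FPKM in the E18 libraries, 16.8 and 19.9 in those of P5 and 5.56 and 5.37 in those of Adult. It fell in Adult relative to P5 (log2 change -1.58, 95% interval -1.93 to -1.23, adjusted p = 7.98e-04). The 8234-base form had 10.6 and 11.6 FPKM in the E18 libraries, 35.4 and 25 in those of P5 and 21.5 and 32.5 in those of Adult. It was higher in Adult than at E18 (log2 change 1.18, 95% interval 0.58 to 1.79, adjusted p = 0.0119), while the P5 and Adult libraries overlapped. As a share of Pcdh10, the 4638-base form made up 41.7% and 42.5% in the E18 libraries, 25.7% and 34.2% in those of P5 and 16.8% and 12.1% in those of Adult. The 8234-base form made up 34.6% and 37.0% in the E18 libraries, 54.1% and 43.0% in those of P5 and 65.1% and 73.2% in those of Adult. The 7273-base form also fell in Adult relative to P5 (log2 change -1.09, 95% interval -1.58 to -0.59, adjusted p = 0.00835), and the 7081-base form was not called.

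**Figure D5:**
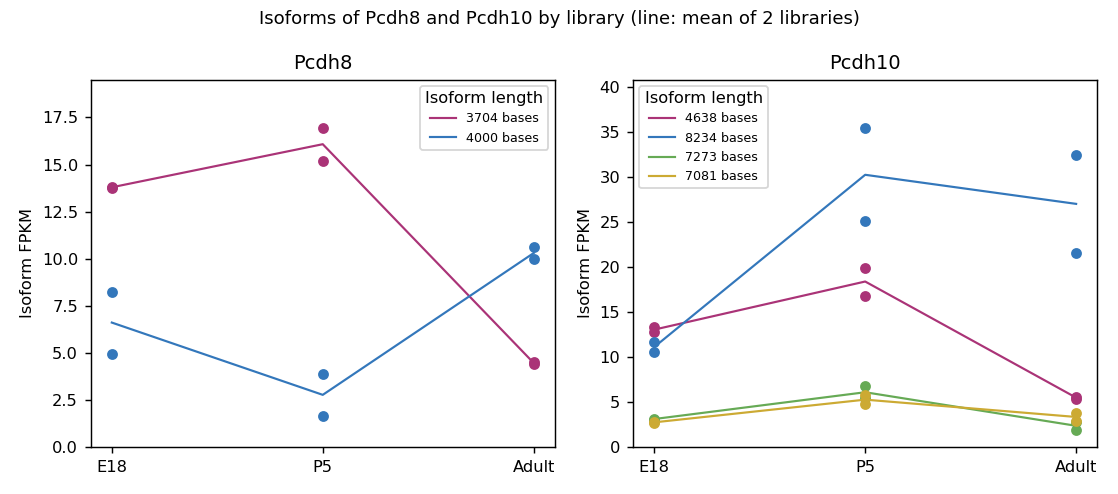
FPKM of single isoforms of Pcdh8 and Pcdh10 (y axis, from 0) in the 2 libraries of each age (x axis), with a line through the means. In Adult the 4000-base form of Pcdh8 had 9.999 and 10.6 FPKM and the 3704-base form 4.41 and 4.51 FPKM, the reverse of their order at E18 and P5.

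Over the whole family 134 of 168 isoforms were tested singly. At P5 relative to E18, 1 was higher and 1 lower, where 1.63% of all isoforms were called. The higher was the 8729-base form of Pcdh11x and the lower the 3752-base form of Pcdh7. In Adult, 29 were higher and 36 lower than at P5, and 40 higher and 32 lower than at E18, where 43.3% and 44.7% of all isoforms were called. Of the 168 isoforms, 12 were listed as unannotated splice forms.

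Pcdh15 and Pcdh20 were near or below 4 FPKM at the younger ages and higher in Adult. Pcdh15, which photoreceptors and hair cells use and which is a gene of Usher syndrome, had 0.492 and 0.755 FPKM in the E18 libraries, 0.190 and 0.614 in those of P5 and 16.3 and 4.89 in those of Adult. It rose in Adult relative to P5 (log2 change 2.87, 95% interval 1.68 to 4.05, adjusted p = 0.0031), by 3.65 on the log2 scale without Adult replicate 2 and 2.09 without Adult replicate 1. Pcdh15 passed the filter of a mean of 1 FPKM only through its Adult libraries, so filter and test are not independent. Adult replicate 1, the higher of the pair, was also the library with 5817 FPKM of rod markers, against 714 FPKM in replicate 2; the part of rods in this result was not tested. Pcdh20 had 2.41 and 3.33 FPKM in the E18 libraries, 3.77 and 2.30 in those of P5 and 9.70 and 11 in those of Adult. Its Adult libraries lay above all others (log2 change 1.52, 95% interval 0.96 to 2.07, adjusted p = 0.00185, against P5), and replicate 2 was the higher.

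Catenins and their linkers tie classical cadherins to actin. Of 12 tested, 1 was higher and 5 lower in Adult than at P5, where 26.2% of all genes were higher and 33.7% lower, 0 higher and 6 lower than at E18 (0 and 6 unadjusted), where 25.3% and 34.4% were, and 2 were lower and 0 higher at P5 relative to E18 (3 and 0 unadjusted), where 4.95% and 5.52% were. Ctnnb1, beta-catenin, had 302 and 324 FPKM in the E18 libraries, 331 and 309 in those of P5 and 129 and 140.1 in those of Adult. Ctnna2, the neuronal alpha-catenin, had 115 and 132 FPKM in the E18 libraries, 103 and 107 in those of P5 and 23.3 and 27.8 in those of Adult. Jup, plakoglobin, had 60.9 and 69.6 FPKM in the E18 libraries, 53.9 and 63.2 in those of P5 and 10.7 and 7.69 in those of Adult. All 3 had both Adult libraries below all younger ones, with log2 changes against P5 of -1.24, -2.0 and -2.56 (adjusted p = 1.73e-04, 8.44e-05 and 1.10e-04). Ctnna1, the alpha-catenin of epithelia and many other cells, had 11.9 and 9.25 FPKM in the E18 libraries, 4.71 and 3.93 in those of P5 and 14.6 and 13.2 in those of Adult and went the other way (1.49 against P5, adjusted p = 5.55e-04).

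Among other genes of the cadherin superfamily, 3 of 9 tested were higher and 4 lower in Adult than at P5, beside the 26.2% higher and 33.7% lower of all genes. Clstn1, calsyntenin-1, which carries cargo along axons, had 159.6 and 181 FPKM in the E18 libraries, 233 and 257 in those of P5 and 208 and 228 in those of Adult and rose at P5 relative to E18 (log2 change 0.52, adjusted p = 0.0388). Clstn3 had 39.1 and 49.97 FPKM in the E18 libraries, 61.7 and 50.3 in those of P5 and 22.5 and 16.2 in those of Adult and Dchs1, a partner of Fat4, had 22.6 and 23.9 FPKM in the E18 libraries, 15.6 and 23.1 in those of P5 and 4.23 and 5.60 in those of Adult. Both fell in Adult relative to P5, by 1.5 and 1.77 on the log2 scale (adjusted p = 0.0012 and 6.99e-04). Cdhr1, the photoreceptor cadherin, had 0.853 and 0.433 FPKM in the E18 libraries, 3.07 and 2.42 in those of P5 and 25.2 and 8.11 in those of Adult, and like the rod markers it was higher in Adult replicate 1 than in replicate 2.

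The insulator protein Ctcf and cohesin loop the clustered promoters to their enhancers, and a list was made of them and related genes. Of 14 tested, 5 were higher and 0 lower in Adult than at P5 (0 lower at an unadjusted p under 0.05 as well), beside 26.2% and 33.7% of all genes, 3 were higher and 4 lower in Adult than at E18, and 2 were lower and 0 higher at P5 relative to E18. Over all genes, 25.3% were higher and 34.4% lower in Adult than at E18. At P5 relative to E18, 5.52% were higher and 4.95% lower. Pds5b and Wapl, which regulate how long cohesin stays on DNA, and Stag2, a cohesin subunit, had the smallest p. Pds5b had 11.8 and 11.1 FPKM in the E18 libraries, 13.7 and 12.5 in those of P5 and 21.9 and 29.5 in those of Adult, and Stag2 had 17.4 and 17.2 FPKM in the E18 libraries, 20.6 and 20.8 in those of P5 and 34.6 and 29.2 in those of Adult. Their log2 changes in Adult relative to P5 were 0.90 and 0.59 (adjusted p = 0.00364 and 0.00566), and that of Wapl was 1.0 (adjusted p = 0.00544). The counts and changes of this and the other pathway lists are given as deposited only. With TPM the median log2 change of all genes moved from -0.07 to -0.76 in Adult against P5. Whether a rise as small as that of Stag2 keeps its sign with TPM is thus not shown. Dnmt1, the maintenance DNA methyltransferase, and the cohesin subunit Smc1a were the 2 genes lower at P5 than at E18 (log2 changes -0.45 and -0.43, adjusted p = 0.0405 and 0.0459).

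Partners that act below protocadherins were tested in 15 genes, with 2 higher and 7 lower in Adult than at P5, close to the 59.8% called over all genes, the same counts against E18, and 0 called at P5 relative to E18 (3 higher and 1 lower at an unadjusted p under 0.05). Over all genes, 59.7% were called in Adult against E18 and 10.5% at P5 relative to E18. Fyn, a kinase, had 82.7 and 93.3 FPKM in the E18 libraries, 88.7 and 109 in those of P5 and 21.3 and 25 in those of Adult and was lower in Adult (log2 change -2.04 against P5, adjusted p = 1.21e-04). Within the WAVE complex the members went opposite ways: Cyfip2 had 33.2 and 32.7 FPKM in the E18 libraries, 26.2 and 32.6 in those of P5 and 105 and 135 in those of Adult and Abi1 had 35.5 and 39.0 FPKM in the E18 libraries, 46.6 and 48.4 in those of P5 and 24.6 and 23.6 in those of Adult. Cyfip2 rose in Adult relative to P5 (1.99, adjusted p = 1.89e-04) and Abi1 fell (-0.95, adjusted p = 4.80e-04). Dab1, the adaptor that Pcdh18 binds, was the other gene to rise in Adult relative to P5 (1.64, adjusted p = 0.00199).

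Of 11 proteases and maturation genes that cut cadherins, 2 were higher and 4 lower in Adult than at P5, also close to the 59.8% called over all genes, and likewise against E18, while 1 was lower and 0 higher at P5 relative to E18. Over all genes, 59.7% were called against E18 in Adult, and 4.95% were lower and 5.52% higher at P5. Adam10, which sheds the outer part of N-cadherin and gamma protocadherins, had 22.4 and 23.1 FPKM in the E18 libraries, 17.1 and 17.8 in those of P5 and 7.5 and 8.40 in those of Adult. Its Adult libraries lay below all others (log2 change -1.05 against P5, adjusted p = 5.02e-04). Aph1b, a subunit of gamma-secretase, had 15.8 and 17.9 FPKM in the E18 libraries, 15.1 and 17.3 in those of P5 and 6.04 and 6.15 in those of Adult, with the same order (-1.27, adjusted p = 3.96e-04). Mmp14, a membrane protease, had 5.86 and 6.25 FPKM in the E18 libraries, 0.950 and 1.27 in those of P5 and 1.29 and 2.91 in those of Adult, and fell at P5 relative to E18 (-1.74, adjusted p = 0.02).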

How the data were processed

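RNA of panned RGCs was measured in 6 libraries, 2 at each of 3 ages. The values are isoform FPKM as the authors deposited them. The submitters' processing notes name HISAT2, Cufflinks, Cuffdiff and mm10, and versions and scaling are not given in the sources used here. Every listed isoform reaches at least 1 FPKM in some library, and 1e-04 stands in place of 0, which was read as 0. Both P5 columns carry 1 header and are called libraries a and b. A further 9 columns of sample values were not used. Nothing says that libraries came from separate animals, so a p-value reflects the spread among these samples alone, which may be technical.

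Isoform FPKM were summed per gene symbol. Genes or isoforms with a mean of at least 1 FPKM over the 6 libraries (14390 and 34941) were tested on log2(FPKM + 1), a scale that understates the change of low genes, with limma 3.58.1 in R 4.3.3 (trended eBayes, age as the factor, all 6 libraries in 1 fit; residual df 3, prior df 3.26 over genes and 2.88 over isoforms). Tests were two-sided, with Benjamini-Hochberg adjustment over all features of a comparison; intervals are 95% and not adjusted. Any member could be named; values by library were set for members called in any comparison or reaching 10 FPKM at an age, and pathway genes by smallest p and highest level. With 2 libraries per age no comparison can reach 0.05 in an exact permutation test, so none is given.

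The members, classes and lists were chosen with earlier results of these data known. Depth is unknown, since FPKM carry no counts. Exon numbers and coding stretches were taken from GENCODE M21 on GRCm38, where isoform lengths matched within 10 bases (150 of 156 annotated member isoforms); promoter sequences were taken from RefSeq. Tables were handled in Python 3.11.15 with pandas 2.3.3. The fit was tested on simulated data. Alternatives were TPM, quantile and protein-coding scaling, a pseudocount of 0.1, no filter, annotated isoforms only, 2 ages per fit, leaving out each library and a replicate block.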

Additional observations from a re-analysis of the deposited data

How the results depend on the processing

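The counts of members called depended most on the scaling and, in P5 against E18, on the number of libraries. In P5 against E18, against 12 higher and 1 lower, fitting 2 ages only gave 5 higher and 0 lower, leaving out 1 library gave 0 to 4 higher and 0 lower, and TPM and the protein-coding total each gave 0 lower. In Adult against P5, against 19 higher and 28 lower, TPM gave 6 and 51 and the protein-coding total 32 higher. In Adult against E18, against 26 higher and 22 lower, TPM gave 11 and 36, and leaving out 1 library gave 15 to 29 higher. With TPM the change in Adult against P5 turned negative for 27 members, of which 17 were called as deposited or with TPM, namely Cdh7 (-0.72), Cdh8 (-0.62), Cdh12 (-0.57), Cdh18 (-0.24), Pcdh7 (-0.70), Pcdh17 (-0.59), Pcdhb10 (-0.43), Pcdhb12 (-0.024), Pcdhb13 (-0.62), Pcdhb14 (-0.64), Pcdhb18 (-0.42), Pcdhb20 (-0.49), Pcdhb21 (-0.53), Pcdhb22 (-0.54), Pcdhga2 (-0.54), Pcdhga6 (-0.55) and Pcdhgb7 (-0.64). In Adult against E18 it turned negative for 23, of which 4 were called in either, namely Pcdhb9 (-0.15), Pcdhb11 (-0.026), Pcdhb21 (-0.44) and Pcdhb22 (-0.45). With annotated isoforms only, Cdh12 went to -1.68 against P5 and -1.20 against E18, since its unannotated isoform was left out. The median of all genes shifted with TPM to -0.76 and -0.68 in these comparisons, and was 0.08 in P5 against E18. Otherwise the cause was not tested. In P5 against E18, 8 of 13 calls held across the scalings, and the calls depended on single libraries as given above. In Adult against P5, 27 of 47 calls held under all alternatives, and 26 of 48 in Adult against E18. A replicate block was possible only for Adult against E18, since the P5 columns carry no number: it gave 19 higher and 21 lower. Deviations of same-numbered samples correlated at 0.0183, so the numbers do not show pairing.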
